A study of Mus musculus with 12 samples.

Results

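Cholesterol synthesis was followed through 8 genes, Hmgcs1, Idi1, Fdps, Sqle, Lss, Cyp51, Insig1 and Srebf2, which were taken by symbol from a count table of 56065 genes. All 8 were found, and all 8 passed the filter on low counts along with 17893 genes tested in total. Mouse submandibular gland (SMG), the large salivary gland under the jaw, was profiled by bulk RNA-seq in 12 libraries, each labelled as a separate mouse. The 4 groups of 3 were female and male wild-type C57BL/6J mice and female and male C57BL/6J-Pou2f3-/- mice, all 8 weeks old per the study's methods. The knockout is a germline allele of the whole body, Pou2f3em1Cbwi, and Pou2f3 is the transcription factor that tuft cells (TCs), rare chemosensory epithelial cells, need in order to form. Each sex was compared between genotypes to ask how the gland differs without TCs.

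Cells build cholesterol from acetyl-CoA through the mevalonate pathway, which first makes isoprene units, joins them into squalene and then closes squalene into the sterol ring. When sterols in the endoplasmic reticulum run low, SREBP2, the product of Srebf2, is carried by SCAP to the Golgi, cleaved, and enters the nucleus to switch on the genes of the pathway. INSIG proteins hold SCAP back when sterols are plentiful. In a secretory gland, cholesterol is a component of the plasma membrane and of secretory granule membranes.

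In females, 6 of the 8 genes were lower in the knockout, by 1.58-fold (Lss) to 2.03-fold (Idi1), and none was higher, in a comparison that called 36.9% of all genes. That count fell to 1 with total counts in place of TMM scaling (40.3% of all genes). It fell to 3 without female knockout 3, female wild type 2 or female wild type 3 (28.3%, 30.6% and 26.5%). Calls were also lost without the 3 libraries highest in adipocyte markers, where the median log2 difference of the 8 went from -0.71 to -0.61. The count rose to 7 with DESeq2, the study's tool (22.2% of a wider set of 30910 genes), and to 8 without female wild type 1 (38.4%). In males none of the 8 passed the test, in a comparison that called 0.235% of all genes. In 6 of the 8 the knockout difference itself differed between the sexes, beside 25.7% of all genes. That count fell to 1 when either of 2 single libraries was left out (12.9% and 15.7% of all genes) and to 0 with total counts (32.8%). Without the 3 libraries highest in adipocyte markers, which left 1 male knockout library, the median interaction of the 8 went from -0.96 to -0.74. Insig1 and Lss were called higher in females than in males in both genotypes. In the knockout both differences shrank without the 3 libraries highest in adipocyte markers, which left 1 male knockout library. With total counts Lss was called in neither genotype and in wild type turned to 0.11. Acinar and duct markers also differed between the sexes, and their part was not tested.

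Promoter sequence is shown for 4 of the genes because the members are known as targets of a shared factor: Hmgcs1, the only member whose window held the sterol regulatory element searched for; Idi1, with the largest fall in females; Insig1, with the largest sex difference; and Srebf2, which did not pass the test in either sex's genotype comparison. RefSeq windows of 250 bases before to 50 bases after the annotated start were given on GRCm38.p6 for 6 members (Sqle and Fdps were not among them), and each matched GRCm39 at exactly 1 place. The 250 bases before the start are printed 5′ to 3′ on the strand of the gene, with capitals marking matches on either strand to the letters TCACNCCAC (a sterol regulatory element, SRE) or CCAAT (the NF-Y box). The GRCm39 positions are chr13:120151637-120151886 for Hmgcs1, chr13:8935392-8935641 for Idi1, chr5:28276160-28276409 for Insig1 and chr15:82031220-82031469 for Srebf2, all on the plus strand.
Hmgcs1: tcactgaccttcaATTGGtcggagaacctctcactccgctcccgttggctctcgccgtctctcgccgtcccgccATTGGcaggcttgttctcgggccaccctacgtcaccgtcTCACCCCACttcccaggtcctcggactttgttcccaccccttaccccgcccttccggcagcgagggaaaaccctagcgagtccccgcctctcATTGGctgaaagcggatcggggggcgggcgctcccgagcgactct
Idi1: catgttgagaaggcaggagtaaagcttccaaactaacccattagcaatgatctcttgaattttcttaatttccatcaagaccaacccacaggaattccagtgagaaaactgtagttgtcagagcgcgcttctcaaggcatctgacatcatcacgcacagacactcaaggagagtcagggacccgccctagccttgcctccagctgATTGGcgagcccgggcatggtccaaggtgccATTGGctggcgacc
Insig1: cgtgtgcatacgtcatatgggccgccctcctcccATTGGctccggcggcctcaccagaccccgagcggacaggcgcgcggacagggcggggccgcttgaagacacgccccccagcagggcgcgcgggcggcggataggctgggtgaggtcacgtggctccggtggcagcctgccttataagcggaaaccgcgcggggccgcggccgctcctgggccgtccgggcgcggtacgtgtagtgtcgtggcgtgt
Srebf2: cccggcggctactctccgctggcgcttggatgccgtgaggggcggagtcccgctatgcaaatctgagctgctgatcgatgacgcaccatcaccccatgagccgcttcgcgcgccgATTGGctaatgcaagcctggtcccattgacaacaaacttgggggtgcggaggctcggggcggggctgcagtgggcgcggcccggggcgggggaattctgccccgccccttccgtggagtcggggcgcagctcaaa

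Over the full 300-base windows, the SRE letters were found in 1 of 6 members and in 1.24% of 32851 RefSeq promoters of that length. The CCAAT letters were found in 6 of 6 members and in 37.41% of all promoters. The GC box, searched as GGGCGG on both strands, was found in 6 of 6 members and in 35.66% of all promoters, with overlaps between motifs allowed. These matches describe the windows only: a window without the SRE letters says nothing about binding of SREBP2.

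Library totals ran from 47032175 to 67882207 estimated counts, and the 20 most abundant genes took 51.8% to 79.3% of them. Because of that, values are given as library-size-scaled counts (CPM) corrected by TMM, which sets each library's scale from genes outside the extremes, and whose factors were 0.625 to 0.759 in female wild type and 0.902 to 1.45 in the other groups. Pou2f3 itself had 0 to 10 counts in wild-type libraries and 0 to 3 in knockout libraries, too few to check the genotype labels. Of 8 tuft markers, 2 (Gnat3 and Il25) were at 0 in all 12 libraries. Fewer cells of a type and less RNA per cell cannot be told apart in bulk tissue.

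The first steps were represented by Hmgcs1, HMG-CoA synthase, an early enzyme of the mevalonate pathway (GRCm39 chr13:120151915-120170470, plus strand). Its CPM was 26.6, 29.1 and 35.2 in female wild type and 24.1, 24.9 and 21.4 in female knockout. The groups did not overlap, but the fitted log2 difference of -0.37 (SE 0.14) missed the threshold in edgeR's quasi-likelihood test (adjusted p = 0.0534). Hmgcs1 was called in 6 of 11 alternative settings, DESeq2 among them, and in 4 of the 12 fits that left out a library.

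Idi1, isopentenyl-diphosphate isomerase, interconverts the isoprene units (chr13:8935537-8942487, plus strand). It was at 12.3, 15.8 and 19.5 CPM in female wild type and at 7.75, 9.35 and 6.30 in female knockout. Every knockout library was below every wild-type library, and Idi1 fell 2.03-fold (log2 -1.02, SE 0.21, edgeR adjusted p = 0.00237). Fdps, farnesyl diphosphate synthase, joins isoprene units into farnesyl diphosphate (chr3:89000888-89019213, minus strand). It was at 9.69, 16.5 and 18.1 CPM in female wild type and at 8.57, 7.18 and 7.63 in female knockout. The lowest wild-type library lay just above the highest knockout library, and the fall was 1.89-fold (log2 -0.92, SE 0.28, edgeR adjusted p = 0.0220).

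Sqle, squalene epoxidase, carries out the first oxygen-requiring step of sterol synthesis (chr15:59186869-59203043, plus strand). Female wild type stood at 7.41, 9.20 and 12.7 CPM and female knockout at 6.03, 6.51 and 4.29. Sqle had the lowest counts of the set, down to 200 in 1 knockout library, and fell 1.74-fold (log2 -0.80, SE 0.28, edgeR adjusted p = 0.0412). Lss, lanosterol synthase, closes the sterol ring (chr10:76367298-76392976, plus strand). Its libraries were the tightest, with 30.0, 32.3 and 31.6 CPM in female wild type and 19.9, 19.0 and 20.5 in female knockout. That gave the smallest adjusted p of the 8 for a 1.58-fold fall (log2 -0.66, SE 0.11, edgeR adjusted p = 0.000869). Cyp51, lanosterol 14-demethylase, begins the trimming of lanosterol (chr5:4123416-4154751, minus strand). It was at 11.2, 14.6 and 18.0 CPM in female wild type and at 10.1, 9.03 and 7.10 in female knockout, and it fell 1.67-fold (log2 -0.74, SE 0.24, edgeR adjusted p = 0.0316).

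Of the regulators, Insig1 was called in females and Srebf2 was not, and the difference between them was not tested. Insig1, an endoplasmic reticulum protein that retains SCAP and is itself an SREBP target, lies at chr5:28276315-28283668 on the plus strand. It was at 118, 157 and 167 CPM in female wild type and at 108, 87.2 and 81.8 in female knockout. The groups did not overlap and the fall was 1.60-fold (log2 -0.68, SE 0.19, edgeR adjusted p = 0.0136). Srebf2, the gene of the transcription factor (chr15:82031382-82093201, plus strand), was at 42.9, 59.3 and 57.2 CPM in female wild type and at 55.8, 47.8 and 41.7 in female knockout. Here the groups overlapped, with a log2 difference of -0.13 (SE 0.13, edgeR adjusted p = 0.455).

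**Figure D1:**
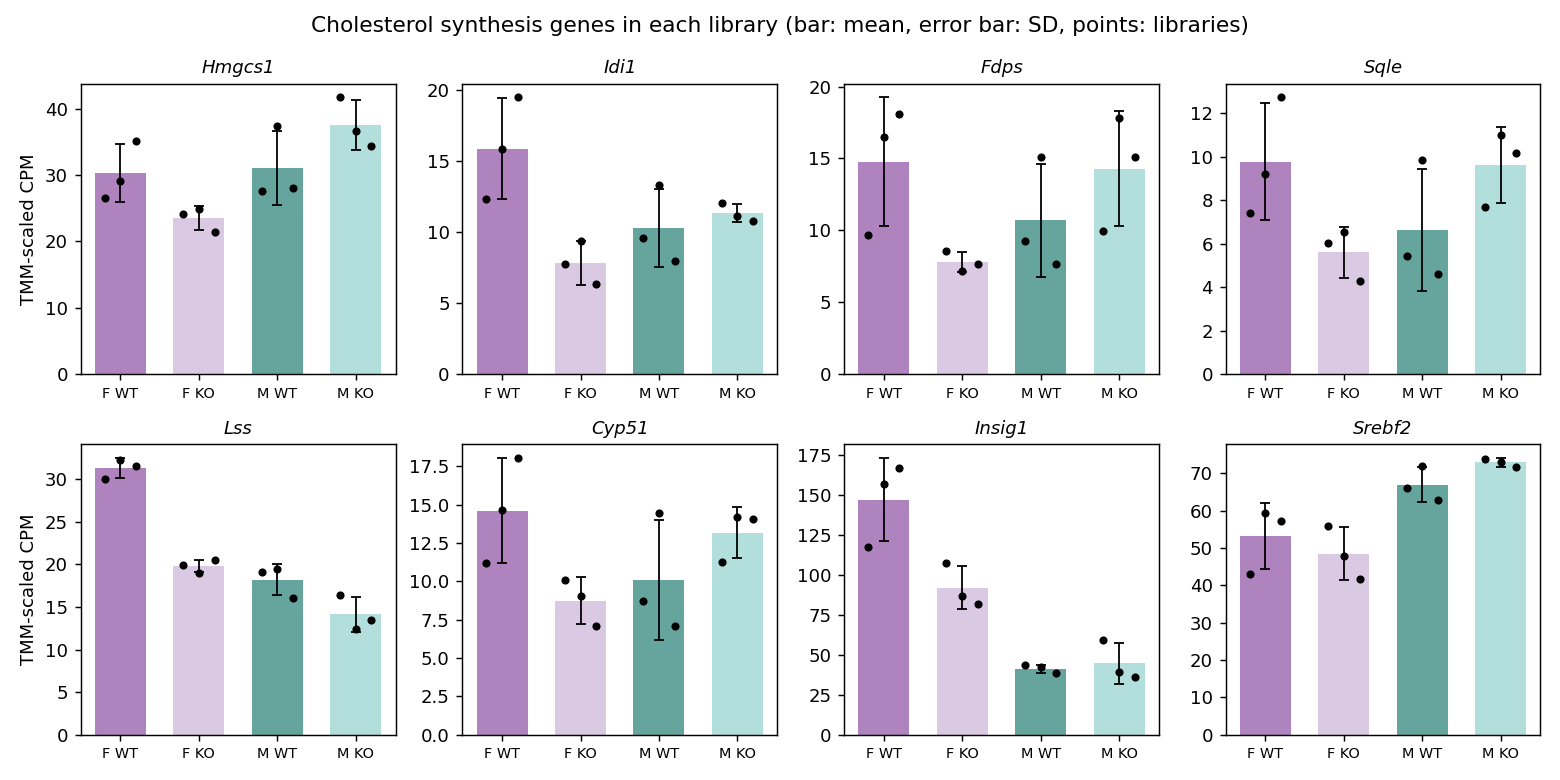
TMM-scaled CPM of each gene (y axis, from 0) in the 3 libraries of each group (F, female; M, male; WT, wild type; KO, Pou2f3-/-); bars are means, error bars SD and points single libraries. In females 7 of the 8 genes have every knockout library below every wild-type library, and Insig1 and Lss are highest in female wild type and low in both male groups.

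The 6 of 8 genes called in females stand beside 36.9% of all genes tested in that comparison, and 19.3% of all genes were called lower in the knockout. Knockout and wild-type libraries were apart in the lower direction for 7 of 8 genes, against 24.1% of all genes. The median log2 difference of the 8 was -0.71, beside 0.03 over all genes.

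These calls depend on scaling and on single libraries. With total counts in place of TMM, an alternative chosen after seeing the data, only Idi1 was called, and Hmgcs1 and Srebf2 turned to 0.15 and 0.39. Under it the median over all genes moved to 0.53 and that of the 8 to -0.18. A change of scale shifts all genes by about the same amount. The gap between the 2 medians (0.71, and 0.74 with TMM) was therefore bound to stay and is no check on the result. Calls over all genes were 3158 higher and 3453 lower with TMM and 6843 higher and 360 lower with total counts. Idi1, Insig1 and Lss were called whichever of the 12 libraries was left out. With upper-quartile scaling 4 of the 8 were called, without Sqle and Cyp51, beside 37.1% of all genes. Leaving out female knockout 3, female wild type 2 or female wild type 3 left only Idi1, Insig1 and Lss called, beside 28.3%, 30.6% and 26.5% of all genes. In the other direction, 8 were called without female wild type 1 (38.4% of all genes) and 7 with DESeq2 (22.2% of 30910 genes).

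Summed marker levels of other cell types moved with some groups. The 10 adipocyte markers summed to 15.9, 21.0 and 113 CPM in female wild type and to 32.2 to 36.0 in female knockout, and most of the knockout sum was Lipe, hormone-sensitive lipase, the 1 marker that rose. Without Lipe the other 9 markers summed to 4.80, 12.6 and 99.9 CPM in female wild type and to 4.28, 8.21 and 3.41 in female knockout. In the fit 9 of the 10 lay below 0 in female knockout and 3 of them were called, with a median log2 difference of -2.84. Female wild type 3, the highest of the female libraries for 6 of the 8 genes, was also the highest in adipocyte markers. In male knockout the adipocyte sums were 17.5, 92.8 and 56.5 CPM, and the mean standardised log2 CPM of the 8 was 0.24, 0.34 and 0.21. Female wild type 1, the lowest of its group for all 8 genes, was the highest in macrophage markers. All 10 adipocyte markers had counts in every female wild-type and male knockout library, and none was at 0 throughout a group. Without the 3 libraries highest in those markers (female wild type 3 and male knockout 2 and 3), a choice made after seeing the data, Idi1, Insig1 and Lss were called in females, beside 22.1% of all genes. The 10 acinar markers, genes of the saliva-secreting cells, summed to 49758 to 61679 CPM in female wild type and to 31253 to 41079 in female knockout. Most of that sum was Prol1 (adjusted p = 0.0766, not called), and of the 10 markers 3 were called lower, 0 higher, and 4 lay above 0. Macrophage markers summed to 113 to 343 CPM in female wild type and 96.7 to 156 in female knockout, with 4 of 10 called lower, and duct markers to 4428 to 8309 and 4821 to 9047, with 2 called lower and 2 higher. The part of these cell types in the female result was not tested.

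**Figure D2:**
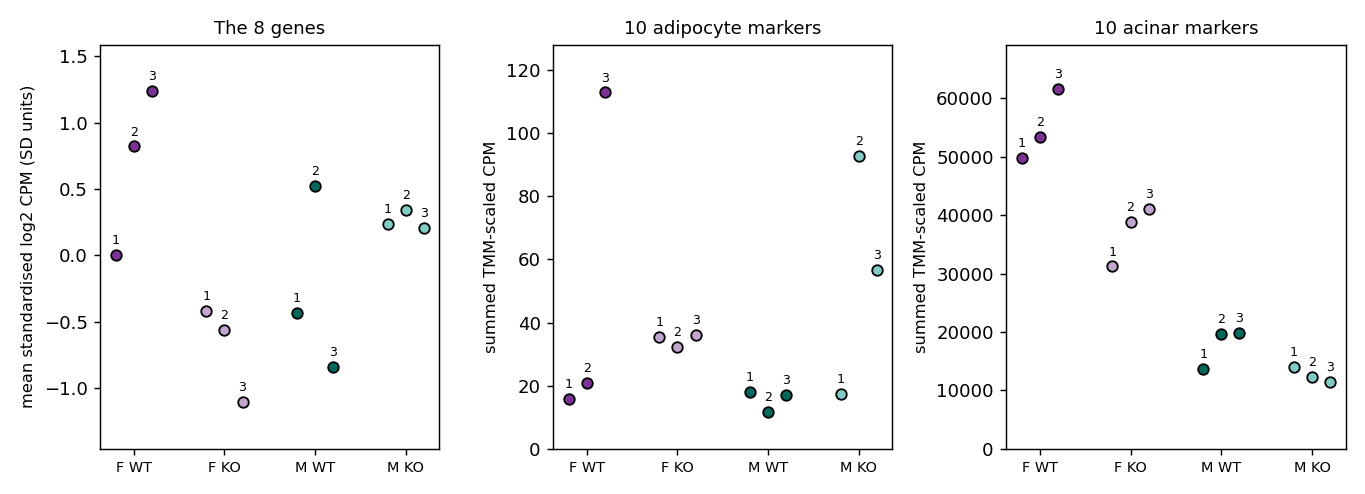
Mean standardised log2 CPM of the 8 genes (left, SD units), and the summed CPM of 10 adipocyte markers (middle) and 10 acinar markers (right), in each library, numbered by replicate. Female wild type 3 is highest in the left and middle panels, Lipe makes up most of the female knockout sums in the middle panel, and the female knockout libraries are below the female wild-type libraries in the left and right panels.

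In males the same comparison gave no call. Among 17893 genes 0.235% passed the threshold, and of the 8 genes 0 did in edgeR and 0 in DESeq2. At an unadjusted p under 0.05 there were 2056 genes in all in edgeR, and of the 8 only Lss was among them. Sqle was at 5.45, 9.85 and 4.62 CPM in male wild type and at 7.68, 11.0 and 10.2 in male knockout. The wild-type libraries were scattered, with male wild type 2 above the lowest knockout library, and the log2 difference was 0.54 (SE 0.28, edgeR adjusted p = 0.494). Male wild type 2 was the highest of its group for 7 of the 8 genes and male wild type 3 the lowest for 7.

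Fdps was at 9.27, 15.1 and 7.66 CPM in male wild type and at 9.96, 17.8 and 15.1 in male knockout. Cyp51 was at 8.75, 14.5 and 7.06 CPM and at 11.3, 14.2 and 14.1. The male wild-type range covered part of the knockout range for Fdps and all of it for Cyp51, and the log2 differences were 0.42 (SE 0.28) and 0.38 (SE 0.24). Hmgcs1 was at 27.6, 37.4 and 28.0 CPM in male wild type and at 41.7, 36.6 and 34.3 in male knockout. Idi1 was at 9.56, 13.3 and 7.92 CPM and at 12.1, 11.1 and 10.8. Both pairs of groups overlapped, with log2 differences of 0.28 (SE 0.14) and 0.14 (SE 0.20).

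Srebf2 was at 66.1, 71.9 and 62.8 CPM in male wild type and at 73.9, 73.0 and 71.6 in male knockout, a log2 difference of 0.12 (SE 0.13). Insig1 was at 43.5, 42.3 and 38.5 CPM and at 59.6, 39.1 and 36.0, where the difference of 0.12 (SE 0.19) rested on male knockout 1 and was -0.14 without it. Lss was the 1 gene with a negative value in males, at 19.1, 19.4 and 16.1 CPM in wild type and 16.4, 12.4 and 13.5 in knockout (log2 -0.37, SE 0.11, edgeR adjusted p = 0.206). Without male knockout 1 it passed the threshold (adjusted p = 0.0275), in a fit that called 3.42% of all genes in place of 0.235%.

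**Figure D3:**
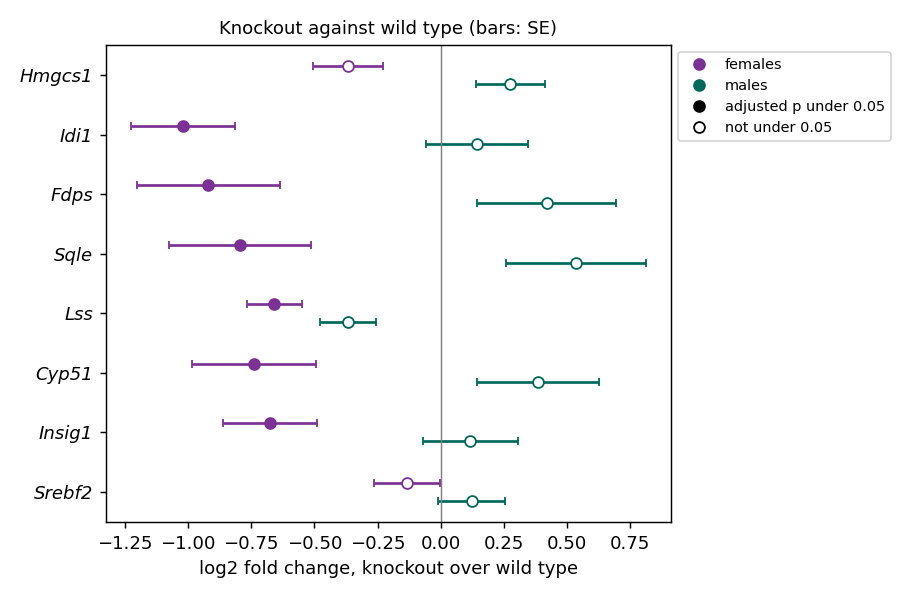
Log2 fold change of knockout over wild type (x axis) for each gene in females and males, with SE as bars; filled points have an adjusted p under 0.05. The female points run from -1.02 to -0.13 and the male points from -0.37 to 0.54, with Lss below 0 in both sexes.

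Whether the knockout difference itself differed between the sexes was tested by the interaction of genotype and sex, in which 25.7% of all genes were called and 12.4% were called with a negative value. Of the 8 genes, 6 were called, all with a negative value, meaning a lower knockout over wild-type ratio in females than in males. The values were -1.34 (SE 0.39) for Fdps, -1.33 (SE 0.39) for Sqle, -1.16 (SE 0.29) for Idi1, -1.12 (SE 0.34) for Cyp51, -0.79 (SE 0.26) for Insig1 and -0.64 (SE 0.19) for Hmgcs1, with edgeR adjusted p-values from 0.0137 to 0.0437. Lss, at -0.29 (SE 0.16, adjusted p = 0.180), and Srebf2, at -0.26 (SE 0.19, adjusted p = 0.322), were not called. Idi1 was called whichever library was left out, and it was the only gene called without male wild type 1 or without male wild type 3, where 12.9% and 15.7% of all genes were called. The count was 2 without female wild type 3 or male knockout 2 (18.9% and 17.2% of all genes), and 3 without female knockout 3 or male knockout 3 (18.6% and 16.2%). With upper-quartile scaling it was 5 (25.6% of all genes). Markers of other cell types moved with the interaction. All 10 macrophage markers had a negative value and 6 were called (median -1.48), and 8 of 10 adipocyte markers were called with a negative value (median -7.76). Among males, the summed macrophage markers ranged from 130 to 246 CPM in the knockout, above the 97.3 to 115 CPM of wild type, and the summed adipocyte markers from 17.5 to 92.8 CPM, beside 11.8 to 18.1 CPM. Their part in the interaction was not tested. Without the 3 libraries highest in adipocyte markers, after which male knockout kept 1 library that was assumed to vary like the other groups, 0 of the 8 and 0 of all genes were called by edgeR, with 4 of the 8 and 4529 of all genes at an unadjusted p under 0.05. With total counts edgeR called 0 of the 8, with 3 at an unadjusted p under 0.05, while 32.8% of all genes were called and the all-gene median moved to 0.64, beside -0.34 for the 8.

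Males and females were compared within each genotype. In wild type, 36.5% of all genes were called between males and females and 16.0% were called lower in males. Of the 8, 3 were called, all lower in males: Insig1 by 3.56-fold (log2 -1.83, SE 0.19, edgeR adjusted p = 1.13e-05), Lss by 1.72-fold (log2 -0.78, SE 0.11, adjusted p = 0.000132) and Idi1 by 1.54-fold (log2 -0.63, SE 0.20, adjusted p = 0.0278). For 2 of the 8, Insig1 and Lss, every male wild-type library was below every female one, beside 20.9% of all genes. Cell type markers also differed between the wild-type sexes. The 10 acinar markers summed to 49758 to 61679 CPM in females and 13759 to 19841 in males, with 6 called lower in males and 0 higher. The 10 duct markers summed to 4428 to 8309 and 45874 to 80551 CPM, with 6 called higher and 1 lower. Their part in the sex differences was not tested. With total counts the median over all genes moved from 0.06 to 0.95 and 69.4% of genes were called. Insig1 was then at -0.92 and called, Lss and Idi1 were at 0.11 and 0.25, and Hmgcs1 and Srebf2 were called higher in males. The count of calls was 6 without male wild type 2 (35% of all genes) and 2 without female wild type 2 or 3 or male wild type 1 or 3 (27.0% to 30.4%), and Idi1 was called in 8 of the 12 fits that left out a library.

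In the knockout, 43.5% of all genes were called between the sexes, 23.2% higher and 20.3% lower in males. Of the 8, 7 were called: Fdps, Sqle, Hmgcs1, Srebf2 and Idi1 were higher in males, by 1.45-fold (Idi1) to 1.83-fold (Fdps), and Insig1 and Lss were lower, by 2.05-fold and 1.40-fold. Cyp51 was at 0.59 (SE 0.24, edgeR adjusted p = 0.0660). It was called in 4 of 11 alternative settings, among them DESeq2, which called 8 of the 8 genes (26.1% of 30910 genes). The count of calls was 4 without female knockout 3, male knockout 2 or male knockout 3 (34.2%, 35.1% and 33.7% of all genes), and 4 with upper-quartile scaling (44.9%). With total counts, where 38.9% of all genes were called, Lss was at -0.21 and not called. Without the 3 libraries highest in adipocyte markers, the only male knockout library kept was male knockout 1, the highest of its group for Insig1 and Lss. Insig1 was then at -0.60 and Lss at -0.24, both smaller differences than with all libraries. Among knockouts the 10 acinar markers summed to 31253 to 41079 CPM in females and 11419 to 14000 in males, with 5 called lower in males and 0 higher. The 10 duct markers summed to 4821 to 9047 and 59130 to 77015 CPM, with 8 called higher and 1 lower. Their part here was not tested. These sex comparisons use the libraries of the genotype comparisons again.

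**Figure D4:**
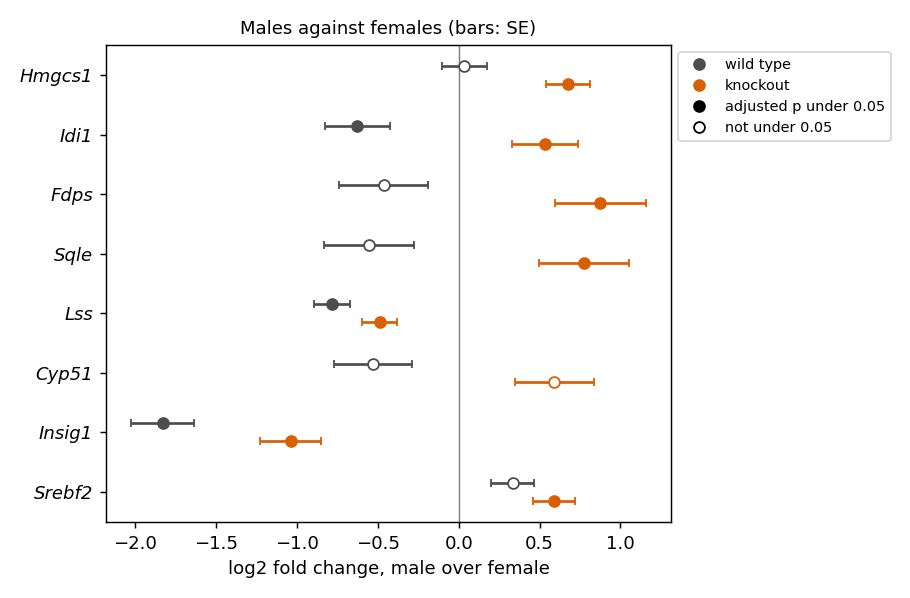
Log2 fold change of males over females (x axis) for each gene in wild type and in knockout, with SE as bars; filled points have an adjusted p under 0.05. Insig1 and Lss lie below 0 in both genotypes, while the other genes lie above 0 in the knockout.

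Levels between genes were compared per kilobase of the canonical transcript. Insig1 was the most abundant of the 8 in every group, at 53.8 ± 9.48 CPM per kb (SD, n = 3) in female wild type and 33.7 ± 4.96 in female knockout, where its range was clear of the next gene. In males it was at 15.1 ± 0.963 in wild type and 16.4 ± 4.69 in knockout, and overlapped Srebf2 at 13.2 ± 0.905 and 14.3 ± 0.225. Fdps and Hmgcs1 overlapped each other in all 4 groups. Cyp51 was the lowest in 3 groups, at 1.76 to 2.94 CPM per kb, and overlapped Sqle in all of them, while in male knockout Lss was the lowest at 2.21 ± 0.324. The order below Insig1 depended on the length used. Per merged exon length Sqle was the lowest in every group, Fdps ranked 5 in 3 groups and 6 in female knockout, and Hmgcs1 was above Srebf2 in female wild type (5.75 against 5.69 CPM per kb).

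Over the 12 libraries, and as a description of libraries that share groups, scaling and depth, Cyp51 and Sqle had the most similar pattern of any pair of the 8 (Pearson r = 0.98 over standardised log2 CPM). Insig1 and Lss were alike (r = 0.88) and Insig1 and Srebf2 ran opposite (r = -0.62). Among the 5 genes outside all lists whose pattern was nearest to the mean of the 8 were Rpl13 (r = 0.96), Mrpl36 (0.95), Rps19 (0.95) and Rpl37a (0.94), which encode ribosomal proteins of the cytosol and, for Mrpl36, of the mitochondrion. That mean ran close to Cyp51 (r = 0.97), Idi1 (0.96), Sqle (0.93) and Fdps (0.90), less so to Hmgcs1 (0.72), and only loosely to Srebf2 (0.42), Lss (0.36) and Insig1 (0.31).

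Other genes of the pathway were described by lists, whose counts of calls in females stand beside 36.9% of all genes (19.3% called lower). Of 16 other synthesis enzymes, 7 were lower and 1 higher in female knockout, with a median log2 difference of -0.48. Fdft1, squalene synthase, fell by 1.04 (SE 0.15, edgeR adjusted p = 0.000436), Msmo1, a sterol 4-methyl oxidase, by 0.97 (SE 0.16), Dhcr7, which makes cholesterol from 7-dehydrocholesterol, by 0.73 (SE 0.17) and Ebp, a sterol isomerase, by 0.72 (SE 0.14). Tm7sf2, a sterol reductase, was the 1 enzyme that rose, by 0.55 (SE 0.18).

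Of 10 genes of the isoprenoid branches, 6 were lower and 1 higher in female knockout. Nus1 and Dhdds, the subunits of the enzyme that makes dolichol precursors, fell by 1.02 (SE 0.13) and 0.58 (SE 0.10) on the log2 scale. Fntb, a farnesyltransferase subunit, fell by 0.59 (SE 0.11) and Ggps1, geranylgeranyl diphosphate synthase, by 0.35 (SE 0.10). The list's median was -0.31.

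Of 14 genes of SREBP control, 6 were lower and 0 higher, beside 19.3% of all genes called lower. The list's median was -0.30, and the difference from all genes was not tested. Insig2, the relative of Insig1, fell by 0.68 (SE 0.15) on the log2 scale. Marchf6, a ubiquitin ligase of the endoplasmic reticulum, fell by 0.51 (SE 0.11) and Nfyb, an NF-Y subunit, by 0.55 (SE 0.12). Scap was at -0.26 (SE 0.11, adjusted p = 0.0968) and Srebf1 at -0.31 (SE 0.19, adjusted p = 0.226).

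Of 14 uptake and transport genes tested, 5 were lower and 2 higher, with a median of -0.25. Npc2, a lysosomal cholesterol carrier, fell by 0.58 (SE 0.10), Stard3, an endosomal one, by 0.61 (SE 0.13), and Gramd1a, a sterol transporter at membrane contacts, rose by 0.78 (SE 0.14).

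Of 11 efflux and LXR genes, 2 were lower and 1 higher, beside 36.9% of all genes called, with a median of -0.02. The difference from all genes was not tested. Soat1, which esterifies cholesterol, fell by 0.67 (SE 0.10), Smpdl3a by 0.84 (SE 0.18), and Nr1h2, an LXR receptor, rose by 0.32 (SE 0.11). Abca1, the cholesterol exporter, was at 0.29 (SE 0.17, adjusted p = 0.195) and Ch25h, cholesterol 25-hydroxylase, at -1.25 (SE 0.47, adjusted p = 0.0513).

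Of 16 fatty acid synthesis genes, 5 were lower and 0 higher, beside 19.3% of all genes called lower. The list's median was -0.38, and the difference from all genes was not tested. Acly, which supplies acetyl-CoA to both pathways, fell by 0.93 (SE 0.13), Mid1ip1, an activator of acetyl-CoA carboxylase, by 0.82 (SE 0.14), Scd2, a desaturase, by 0.69 (SE 0.16), Elovl5, an elongase, by 0.65 (SE 0.11) and Fasn, fatty acid synthase, by 0.77 (SE 0.20). In males, 0 genes of these 6 lists were called by edgeR, with medians from -0.09 to 0.09. By DESeq2, 1 other synthesis enzyme and 3 fatty acid synthesis genes were called in males, beside 1.27% of 30910 genes.

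**Figure D5:**
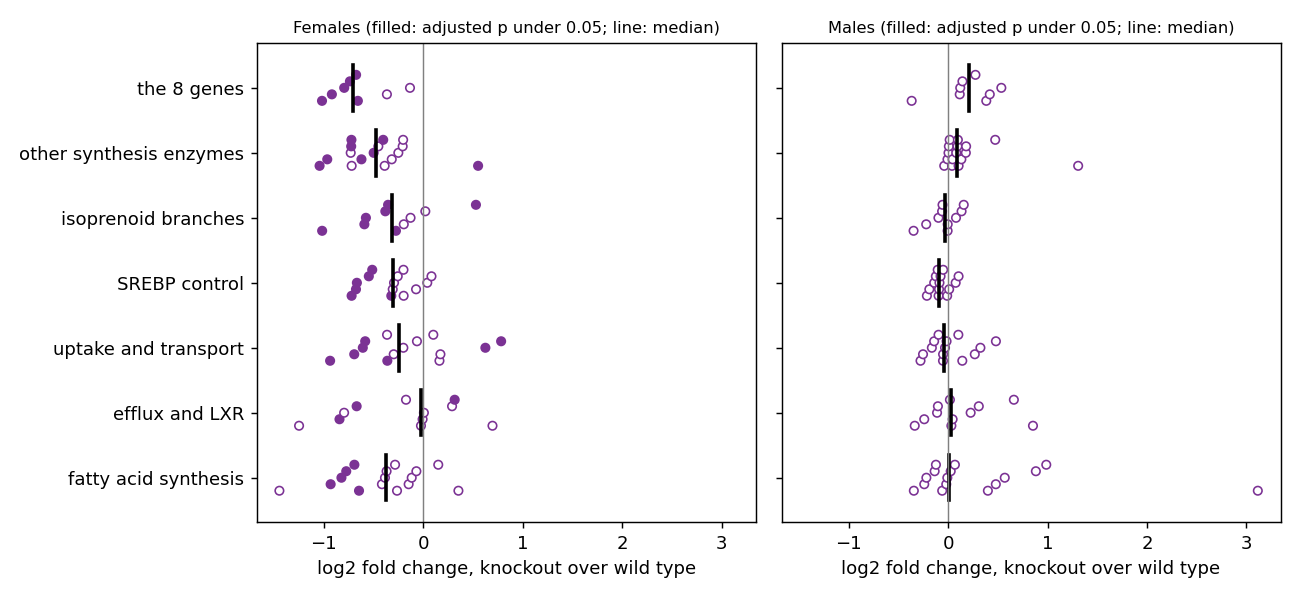
Log2 fold change of knockout over wild type (x axis) for every tested gene of each list, in females (left) and males (right); filled points have an adjusted p under 0.05 and black lines are medians. In females the medians run from -0.71 for the 8 genes to -0.02 for efflux and LXR genes, and in males no point is filled.

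Genes of the circadian clock differed between genotypes in both sexes. Bmal1, a core clock activator, was higher in the knockout by 3.45 (SE 0.21) on the log2 scale in females and by 2.87 (SE 0.20) in males. Dbp, a clock output factor, fell by 2.58 (SE 0.18) in females and by 3.17 (SE 0.19) in males. Of 14 clock genes, 12 were called in females, beside 36.9% of all genes, and 10 in males, beside 0.235% (edgeR adjusted p under 0.05). The hour of tissue collection was not given in the sources used here, and the part of clock phase in the cholesterol synthesis values was not tested.

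Transcripts near-identical to a member were looked for at 90% identity over at least 200 bases. Pseudogene copies of Fdps held 0 to 3 counts in all and those of Idi1 0 to 11. A transcript of Baz1a shares 396 bases with Hmgcs1 at 99.5% identity, and Baz1a had 316 to 849 counts, so the split of reads between Hmgcs1 and Baz1a is uncertain. Cyp51 overlaps Akap9, and Sqle overlaps Washc5, on the opposite strand; the libraries were stranded, and whether the counting used strand was not given in the sources used here.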

How the data were processed

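RNA of 12 mouse SMGs was sequenced after ribosomal RNA removal with a stranded kit; the labels also call the molecule polyA RNA. The authors quantified reads with Salmon 1.10.1 against Gencode M35 (GRCm39), and deposited estimated counts per gene and a normalized signal (counts divided by a factor that differs between genes and libraries, made in a way not given in the sources used here). The estimated counts deposited by the authors were rounded to whole numbers. Genes were named from Gencode M39, which matched 55563 of 56065 IDs. Genes with low counts were removed with filterByExpr, libraries were scaled by TMM, and 1 model over the 4 groups was fitted with the quasi-likelihood test of edgeR 4.0.16 in R 4.3.3. In that fit Benjamini-Hochberg adjustment ran over all 17893 genes, and genes were called at an adjusted p under 0.05. The study's tool, DESeq2 (version 1.42.0 here), was an alternative, as were other scalings and filters, a replicate block and leaving out each library. DESeq2 was run on the 30910 genes with at least 1 count, and its percentages are of those. Between genotypes it called 6875 of them in females and 392 in males, more than the study reported in either sex. Copies were searched with BLAST 2.17.0. CPM used for correlations had a prior count of 2.

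The 8 genes and all lists were chosen with earlier results of these data known. Genes named were the 8, up to 4 genes of each other list with the smallest p in females, Insig2, Srebf1, Scap, Abca1, Fasn, Dbp and Bmal1, and the 5 genes most like the mean of the 8; Tm7sf2 was named after its value was seen, and some genes that this rule selects are not reported here. Replicate numbers did not pair samples. The labels name each library as a separate mouse.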

Additional observations from a re-analysis of the deposited data

Results flagged for a closer look

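In 6 genes the knockout difference differed between females and males by the test of the interaction itself (edgeR, adjusted p under 0.05, 3 libraries per group), in a test that called 25.7% of all genes, 12.4% with a negative value. The interaction values on the log2 scale, female minus male, were -0.64 for Hmgcs1 (adjusted p = 0.0308), -1.33 for Sqle (adjusted p = 0.0280), -1.16 for Idi1 (adjusted p = 0.0137), -1.34 for Fdps (adjusted p = 0.0277), -1.12 for Cyp51 (adjusted p = 0.0319) and -0.79 for Insig1 (adjusted p = 0.0437). Across the leaving out of each library in turn, Idi1 alone kept its call every time, with adjusted p-values from 0.00372 to 0.0402. With total counts 0 of the 8 were called by edgeR, with 3 at an unadjusted p under 0.05. Without the 3 libraries highest in adipocyte markers, which left 1 male knockout library, the median of the 8 went from -0.96 to -0.74.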

How the results depend on the processing

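With total counts in place of TMM, added after seeing the data, edgeR calls among the 8 genes numbered 1 in females (40.3% of all genes) and 0 in the interaction (32.8%). The values that changed sign under it were 0.15 (Hmgcs1) and 0.39 (Srebf2) in females, 0.38 (Srebf2) and 0.32 (Lss) in the interaction, and 0.30 (Sqle), 0.25 (Idi1), 0.40 (Fdps), 0.33 (Cyp51) and 0.11 (Lss) for males against females in wild type; the all-gene medians moved by construction. Without the 3 libraries highest in adipocyte markers, also added, calls were 3 in females (22.1% of all genes). Male knockout then kept 1 library, and Fdps in males was at -0.10. The median of the 8 moved from -0.96 to -0.74 in the interaction and from 0.59 to 0.44 between the sexes in knockout. With upper-quartile scaling 4 were called between the sexes in knockout (44.9% of all genes). Leaving out 1 library gave 3 to 8 calls in females (26.5% to 38.4% of all genes), 0 to 1 in males (0.0702% to 3.42%), 1 to 7 in the interaction (12.9% to 30.2%), 2 to 6 between the sexes in wild type (27.0% to 36.0%) and 4 to 8 in knockout (33.7% to 44.8%). In males these fits gave -0.011 (without male wild type 3) to 0.38 for Idi1 and -0.14 (without male knockout 1) to 0.26 for Insig1. Hmgcs1 between wild-type sexes, near 0, was at -0.013 (RLE), -0.010 (DESeq2), -0.048 (upper quartile) and -0.016 (the authors' factors), and ran from -0.12 to 0.14 when 1 library was left out, being below 0 without female wild type 1 or 2 or male wild type 2. Srebf2 was at -0.036 there with the authors' factors. Except where a single library or the scaling was the change itself, the cause was not tested.

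With a replicate block the counts were 6 in females (35.5% of all genes), 0 in males (0.246%), 6 in the interaction (24.3%), and between the sexes 3 in wild type (35.2%) and 7 in knockout (42.5%). Same-numbered libraries correlated from -0.11 to 0.05 in females and -0.13 to 0.09 in males. Sqle, with 200 counts in its lowest library, has the largest counting error of the 8.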
